A study of Mus musculus with 10 samples.

Results

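The regions described here are places in the mouse genome that bound both myogenic factors, MyoD and Myf5, and that already carried a peak of acetylated histone H4 (H4Ac) in cells given neither factor. They are the peaks of the MyoD list that shared at least 1 bp with a Myf5 peak and at least 1 bp with an H4Ac peak of cells carrying green fluorescent protein (GFP). There were 6414 of them, which is 14.2% of the 45015 MyoD peaks and 14.6% of the 43888 MyoD peaks that overlapped a Myf5 peak. They are called GFP-acetylated sites below, and the remaining 37474 shared peaks are called the other shared sites. The sites were thus chosen by the presence of a peak in the MyoD, Myf5 and GFP H4Ac lists, so values from those 3 lists are a description. H4Ac in the cells with MyoD and in the cells with Myf5 took no part in the choice.

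All cells were mouse embryonic fibroblasts of the genotype MyoD-/-; Myf5-/-, the controls included. A lentivirus brought in MyoD, Myf5 or GFP, the cells entered differentiation medium 24 h after infection, and they were harvested 20 h later. The promoter that drove each transgene is not given in the sources used here. As models these are fibroblasts with an introduced factor and not muscle precursors with their own. MyoD was mapped in the cells with MyoD and Myf5 in the cells with Myf5, on chromatin that was crosslinked and sonicated, whereas H4Ac was mapped on native chromatin cut with micrococcal nuclease. Peak lists were used for 7 of 10 samples, which were the MyoD and the Myf5 precipitation, H4Ac with MyoD, with Myf5 and with GFP, and 2 mock precipitations from cells with GFP. The titles of the MyoD and Myf5 lists name 2 replicates each, joined in 1 list, so the spread between replicates is unknown and no p-value is given. Sequencing depth is unknown from these files. Intervals cover counting error only, at 95%, and neighbouring peaks are not independent. No transcripts were measured in these lists, so the labelled cell type could not be checked against its markers.

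Both factors belong to the basic helix-loop-helix family, which binds short E-box sequences in DNA and, in the case of these proteins, commits cells to skeletal muscle. MyoD is known as a strong activator of muscle genes that recruits histone acetyltransferases, and Myf5 appears earlier in the muscle lineage of the embryo. Acetylation of the histone H4 tail loosens chromatin and is typical of active promoters and enhancers.

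The GFP-acetylated sites bound MyoD somewhat more strongly than the other shared sites did, with a wide overlap. Strength is the highest read coverage that the authors gave for a peak, and it is compared only within a list. MyoD coverage had a median of 58 at the GFP-acetylated sites, with quartiles of 39 and 109 and a range of 27 to 1678. At the other shared sites the median was 49 and the quartiles were 36 and 81. Myf5 coverage had a median of 122 at the GFP-acetylated sites and 113 at the other shared sites, with upper quartiles of 231 and 196. The MyoD peaks were also wider, with a median of 789 bp at the GFP-acetylated sites against 660 bp at the other shared sites, and the Myf5 peaks had medians of 1134 and 902 bp in the same order. A wider MyoD peak has more room for the overlap that chose the sites. Among the GFP-acetylated sites, median MyoD coverage was 39 in the narrowest of 5 equal groups by width and 101 in the widest. The part of width in the differences of strength was not tested. Sites acetylated with MyoD but not with GFP, 2682 in number, bound more strongly still, with median coverages of 92 for MyoD and 204 for Myf5. Among the shared sites, 23.1% of the 10% with the highest MyoD coverage were GFP-acetylated, against 11.3% of the 10% with the lowest.

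**Figure D1:**
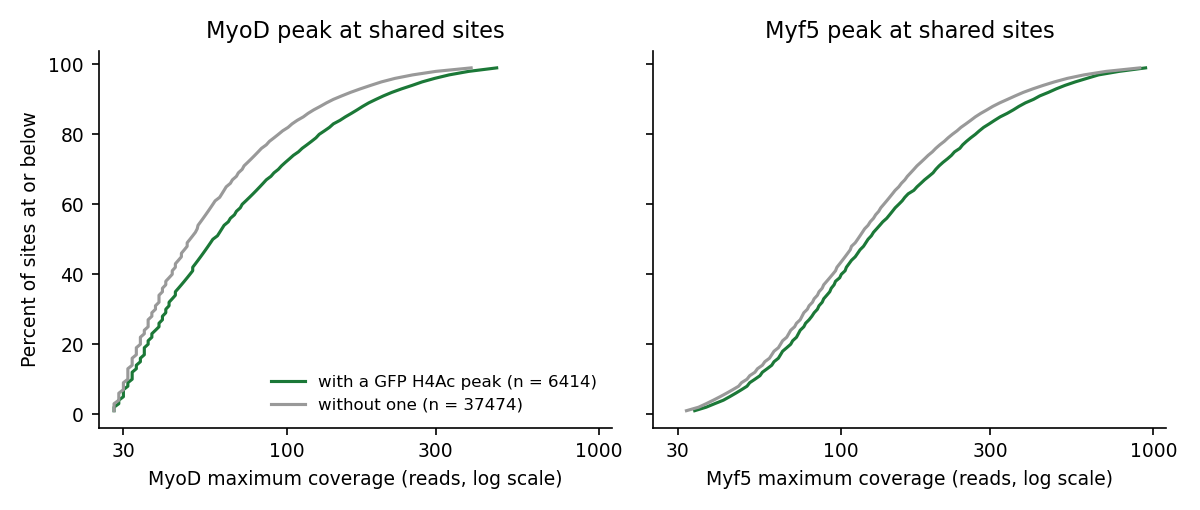
Maximum read coverage of the MyoD peak (one panel) and of the Myf5 peak (the other panel) on a log axis, as the share of sites at or below each coverage, for the GFP-acetylated sites and for the other shared sites. The curve of the GFP-acetylated sites lies at higher coverage in both panels, with medians of 58 against 49 for MyoD and of 122 against 113 for Myf5.

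Base composition and chromosome set the GFP-acetylated sites apart as well. Only 6.63% of them lay in the authors' lowest class of GC content, at most 40%, against 15.7% of the other shared sites. In the class from 45% to 50% GC lay 42.8% of the GFP-acetylated sites and 32.1% of the other shared sites. Read by class, the share of shared sites that were GFP-acetylated was 6.75% in the lowest class, 12.0% from 40% to 45%, 18.6% from 45% to 50%, 18.5% from 50% to 55% and 20.4% above 55%. By chromosome that share was lowest on the X chromosome, at 6.20% with 49 sites, and highest on chromosome 10, at 18.7%. The sites were also grouped along the genome. The shared site next to a GFP-acetylated site on 1 side or the other was itself GFP-acetylated for 40.7% of them, against 23.9% of the other shared sites. Even so, the nearest GFP-acetylated site was a median of 43369 bp away, and 364 sites shared a GFP H4Ac peak with another.

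The H4Ac peaks of the cells with GFP at these sites were stronger than a typical peak of that list. The 6414 sites overlapped 8456 of the 31120 GFP H4Ac peaks, or 27.2%. Counted by peak, median coverage was 40 at the sites and 34 for all other GFP H4Ac peaks. In multiples of the authors' cutoff these medians were 1.58 and 1.35. Other GFP H4Ac peaks that overlapped a factor peak were close to the sites, with medians of 38 in coverage and 1.5 times the cutoff. The greater strength was thus not particular to the GFP-acetylated sites. Taking the strongest GFP H4Ac peak at each site, coverage had a median of 44 and a range of 21 to 525, and it was a median of 1.71 times the cutoff that the authors gave for the peak. Its within-list percentile, which is the share of the list with a lower coverage with ties counted at their midpoint, had a median of 66.7. The median overlap of the MyoD peak with GFP H4Ac was 317 bp. Just inside the rule, 190 sites overlapped GFP H4Ac by at most 50 bp, with a median MyoD coverage of 47, and had H4Ac at 63.7% with MyoD and 66.8% with Myf5. Just outside it, 184 shared sites had a GFP H4Ac peak within 50 bp without overlap, with a median MyoD coverage of 44.5, and had H4Ac at 31.5% with MyoD and 33.7% with Myf5.

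Most GFP-acetylated sites carried an H4Ac peak again when a factor was present. With MyoD, 5619 of 6414 sites did, or 87.6% (86.8 to 88.4, exact binomial interval), where the share over all MyoD peaks was 18.6%. With Myf5, 5141 did, or 80.2% (79.2 to 81.1), where the share over all MyoD peaks was 15.1%. For the other shared sites the shares were 7.16% with MyoD and 4.20% with Myf5. Both populations had H4Ac at 4880 of the GFP-acetylated sites (76.1%). Of the rest, 739 (11.5%) had it with MyoD and not with Myf5, 261 (4.07%) with Myf5 and not with MyoD, and 534 (8.33%) with neither. The share with MyoD was above the share with Myf5 on 20 of 20 chromosomes, where it ran from 81.6% on the X chromosome to 91.8% on chromosome 17, and the share with Myf5 ran from 73.8% on chromosome 11 to 85.2% on chromosome 10. The H4Ac list of the cells with MyoD is the longest, at 36864 peaks against 32041 with Myf5, and with all 3 H4Ac lists held to 31120 peaks the gap between the factors was 4.32 percentage points in place of 7.45. In these bulk samples a mark in fewer cells and a lower level per cell cannot be told apart.

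GC content went with the presence of H4Ac in the cells with Myf5. From the lowest GC class to the highest, H4Ac was present with Myf5 at 86.6%, 83.8%, 80.9%, 72.7% and 66.2% of the GFP-acetylated sites. With MyoD the same classes gave 86.1%, 87.9%, 89.4%, 84.7% and 80.6%. In the lowest class the intervals overlapped, at 82.5 to 89.3 with MyoD and 83.0 to 89.7 with Myf5. In the class from 50% to 55% GC, with 1159 sites, the intervals were 82.5 to 86.8 with MyoD and 70.1 to 75.3 with Myf5. Among GFP H4Ac peaks away from the sites, the share called again with Myf5 was 69.8%, 76.3%, 70.5%, 64.2% and 54.6% over the same classes, so a lower share at high GC was present there too. With MyoD the other GFP H4Ac peaks gave 57.7%, 73.3%, 77.5%, 74.9% and 73.8%. GFP H4Ac peaks at the sites exceeded the other peaks with MyoD by 26.9 points in the lowest GC class (23.5 to 30.3) and by 3.15 points in the highest (-3.45 to 9.76). The authors' coverage cutoff differed by GC class and list, from 19 to 26 with MyoD, 20 to 31 with Myf5 and 21 to 30 with GFP between the lowest and the highest class, and the part of the cutoff or of GC bias in the libraries was not tested.

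The sites that had no H4Ac peak with a factor were mostly those that barely had one with GFP. The 795 sites without H4Ac in the cells with MyoD had a median GFP coverage of 1.14 times the cutoff, against 1.83 times for the sites with H4Ac there. For the 1273 sites without H4Ac in the cells with Myf5 the median was 1.20 times, against 1.90 times for the sites with it. At 107 of the 795 sites (13.5%) the GFP H4Ac peak was called with MyoD, beside the MyoD peak and not under it, and the same held with Myf5 at 62 of 1273 (4.87%). The 534 sites without H4Ac in either population stood at 1.12 times the cutoff with GFP and had median coverages of 48 for MyoD and 101 for Myf5. The 739 sites with H4Ac in the cells with MyoD alone had medians of 63 for MyoD and 126 for Myf5, and the 261 with H4Ac in the cells with Myf5 alone had 45 for MyoD and 102 for Myf5.

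Factor binding was next set against acetylation without it, by asking how often a GFP H4Ac peak was called again at these sites and elsewhere. With MyoD, 85.9% of the 8456 GFP H4Ac peaks at the sites were called again, against 72.5% of the 22664 other GFP H4Ac peaks. Over all GFP H4Ac peaks the share was 76.1%, and the difference was 13.4 percentage points (12.4 to 14.3, normal approximation). Other GFP H4Ac peaks that overlapped a factor peak stood in between, at 79.0%, and those with no factor peak stood at 70.0%. With Myf5, 76.5% were called again at the sites and 71.4% elsewhere, against 72.8% over all GFP H4Ac peaks, a difference of 5.18 points (4.10 to 6.26). Among peaks with an authors' p-value of 1e-07 or lower in every list, the difference was 8.68 points with MyoD (7.43 to 9.93) and 1.04 points with Myf5 (-0.482 to 2.57). Both comparisons use the same GFP list.

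Because strong peaks are more often called again, the comparison was repeated within classes of GFP strength. Among peaks less than 25% above the cutoff, 63.0% of 2349 at the sites were called again with MyoD, against 47.7% of the other peaks. From 25% to 50% above the cutoff the shares with MyoD were 83.5% at the sites and 73.9% elsewhere, and from 50% to 100% above it they were 95.4% at the sites and 91.6% elsewhere. At 100% or more above the cutoff they were 99.8% at the sites and 99.4% elsewhere. With Myf5 the same classes gave 52.6% at the sites and 51.0% elsewhere, then 68.5% at the sites and 71.6% elsewhere, then 83.0% at the sites and 84.3% elsewhere, and last 96.1% at the sites and 96.4% elsewhere. Against all other peaks, the difference with Myf5 was thus positive in the weakest class alone, at 1.57 points with an interval that includes 0 (-0.695 to 3.84). With the other peaks reweighted to the sites' distribution of GFP strength, the difference was 6.83 points with MyoD and -0.449 points with Myf5. Reweighted also to GC content the difference with Myf5 was 1.02 points, and also to width 0.611 points, so its sign was not stable, whereas with MyoD these gave 6.19 and 5.92 points.

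**Figure D2:**
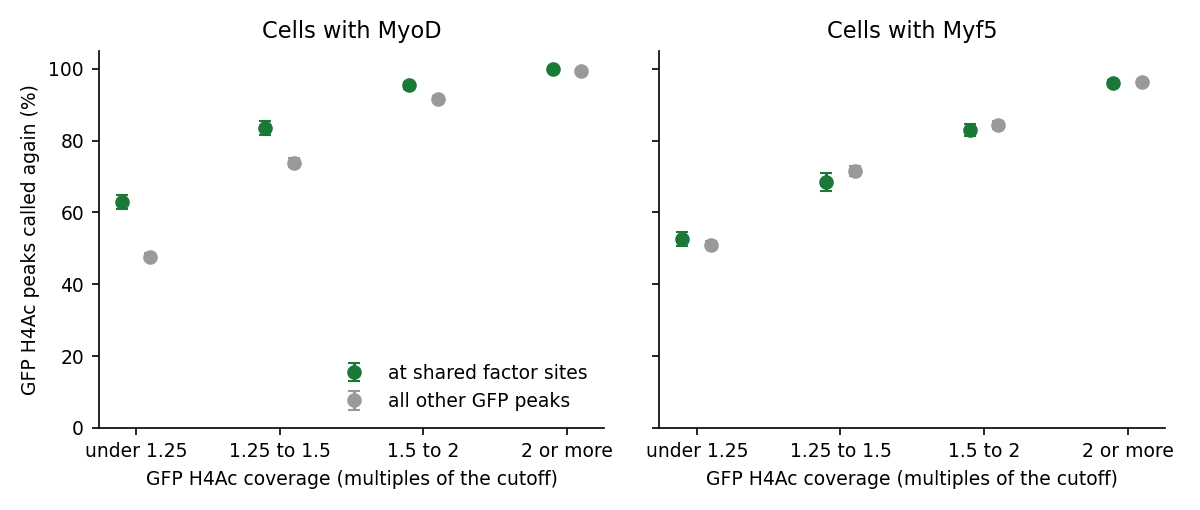
Share of GFP H4Ac peaks called again in the cells with MyoD (one panel) and in the cells with Myf5 (the other panel), in percent with exact binomial intervals, by GFP coverage over the cutoff, at the GFP-acetylated sites and elsewhere. With MyoD the sites stand above the other peaks in each class, by most in the weakest one (63.0% against 47.7%), whereas with Myf5 both sets lie close together.

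Within the GFP-acetylated sites, stronger MyoD peaks more often had H4Ac in the cells with MyoD, although their strongest H4Ac peak in the cells with GFP ranked no higher. The sites were divided into 5 equal groups by MyoD coverage, with medians of 32, 41, 58, 94 and 193. Their GFP H4Ac percentiles had medians of 66.7, 66.7, 66.7, 65.2 and 66.7, so the groups were level in the rank of the strongest GFP H4Ac peak. They were not level in its number, since the mean count of GFP H4Ac peaks per site was 1.29, 1.32, 1.32, 1.35 and 1.46. H4Ac was present with MyoD at 81.8%, 85.7%, 86.8%, 88.9% and 94.7% of the sites, in order of MyoD strength. With Myf5 it was present at 77.1%, 80.9%, 79.8%, 79.5% and 83.5% of the same groups. The strongest group exceeded the weakest by 12.9 points with MyoD (10.4 to 15.3) and by 6.39 points with Myf5 (3.32 to 9.46). MyoD peaks were wider in the strongest group, with a median of 1017 bp against 623 bp in the weakest, which gives more room for an overlap. Judged at the GFP H4Ac peak in place of the MyoD peak, the difference between the groups was 9.66 points with MyoD and 5.30 points with Myf5. With peaks of an authors' p-value of 1e-07 or lower it was 7.66 points with MyoD and 2.46 points with Myf5, the second with an interval of -1.78 to 6.71.

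With MyoD the contrast between these groups was largest where acetylation with GFP was weakest. At sites with GFP coverage less than 25% above the cutoff, H4Ac was present with MyoD at 84.6% of the 279 sites in the strongest MyoD group and at 49.8% of the 301 in the weakest. With Myf5 it was present at 59.1% in the strongest MyoD group and 50.2% in the weakest. From 25% to 50% above the cutoff, H4Ac was present with MyoD at 93.6% in the strongest group and 75.5% in the weakest, and with Myf5 at 81.7% in the strongest and 63.8% in the weakest. From 50% to 100% above it, H4Ac was present with MyoD at 97.0% in the strongest group and 90.3% in the weakest, and beyond that at 99.4% in the strongest and 98.5% in the weakest, where shares near 100% leave little room for a contrast. Dividing the sites by Myf5 coverage gave a like order in the cells with MyoD, at 84.1% in the weakest Myf5 group and 93.1% in the strongest. In the cells with Myf5 itself the share was 77.9% in the weakest Myf5 group and 82.3% in the strongest. Coverage of the 2 factors varied together over these groups, since the median MyoD coverage was 34 in the weakest and 190 in the strongest group by Myf5.

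Ranks were compared over the 4880 sites with H4Ac in all 3 populations. The median percentile was 80.0 with MyoD, 75.8 with Myf5 and 74.3 with GFP. Site by site, the percentile with MyoD exceeded that with GFP by a median of 2.67 points (2.31 to 3.09) and was higher at 63.8% of the sites. The percentile with Myf5 exceeded that with GFP by a median of 1.28 points (0.823 to 1.58) and was higher at 55.2%. These comparisons share the GFP list. Directly between the factors, the percentile with MyoD exceeded that with Myf5 by 1.98 points (1.72 to 2.29) and was higher at 61.3%. These medians depend on the lengths of the lists. With 31120 peaks in each, MyoD exceeded GFP by 0.445 points (0.198 to 0.694), less than the 0.699 points by which Myf5 exceeded GFP (0.323 to 1.07), so the order of the factors relative to GFP turned, while MyoD still exceeded Myf5 site by site, by 0.601 points.

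Other GFP H4Ac peaks show what the lists do away from these sites. Counted by GFP H4Ac peak, the shift with MyoD over GFP was 3.20 points at the sites and 1.93 points elsewhere, and the share that ranked higher was 64.0% at the sites, 58.5% elsewhere and 60.1% over all. The shift with Myf5 over GFP was 1.83 points at the sites and 4.26 points elsewhere, and the share that ranked higher was 57.1% at the sites, 61.5% elsewhere and 60.1% over all. The shift of MyoD over Myf5 was 1.87 points at the sites and -0.543 points elsewhere, with 59.3% higher at the sites, 47.5% elsewhere and 51.1% over all. GFP H4Ac peaks with no factor peak had the lowest share by this last measure, at 45.1%, with a median of -1.37 points. Other GFP H4Ac peaks that overlapped a factor peak had 53.1% higher and a median of 0.613 points (0.281 to 0.932). A positive shift of MyoD over Myf5 was thus not particular to the GFP-acetylated sites, though it was larger there. With lists of equal length the shift with MyoD over GFP was 0.684 points at the sites and -0.492 points elsewhere, and with Myf5 over GFP it was 1.29 points at the sites and 3.27 points elsewhere. MyoD over Myf5 then stood at 0.435 points at the sites and -2.96 points elsewhere.

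By MyoD strength, the median shift with MyoD over GFP was 0.763, 0.942, 1.24, 4.22 and 7.27 points, from the weakest to the strongest group. With Myf5 over GFP the same groups gave 0.629, 0.392, 1.19, 1.81 and 1.97 points. MyoD over Myf5, which does not use the GFP list, gave 0.958, 1.16, 1.08, 3.001 and 3.85 points, and in the strongest group 71.8% of the sites ranked higher with MyoD. With lists of equal length the strongest group had a shift of 5.04 points with MyoD over GFP and 2.57 points with MyoD over Myf5. The weakest group then had -0.816 points with MyoD over GFP and -0.524 points with MyoD over Myf5.

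**Figure D3:**
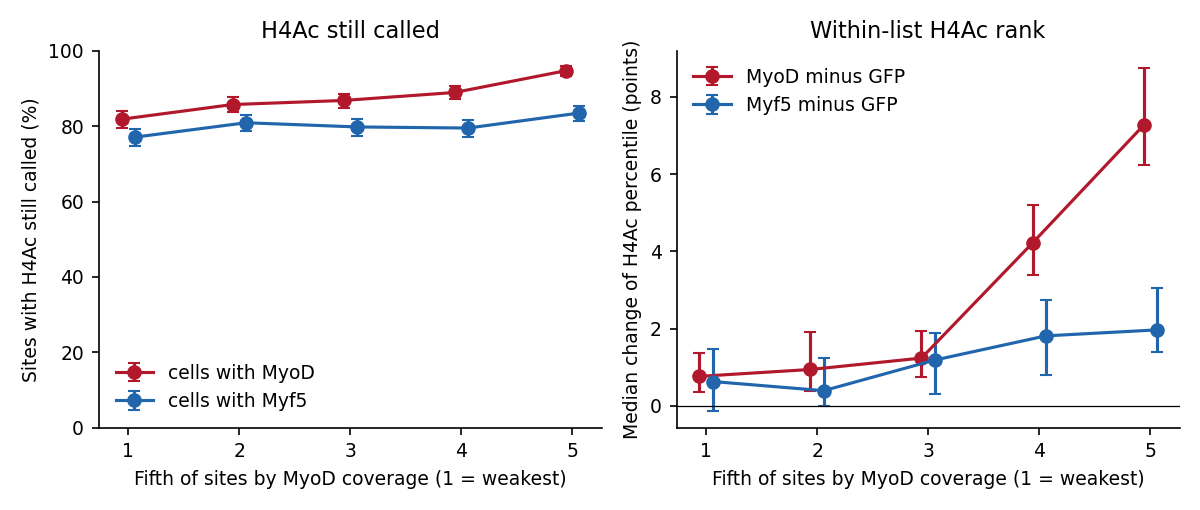
GFP-acetylated sites in 5 equal groups by MyoD coverage, weakest to strongest. One panel gives the percent of sites with H4Ac in the cells with MyoD and with Myf5, with exact binomial intervals, and the other gives the median difference of within-list H4Ac percentile with its 95% interval; the line for MyoD reaches 94.7% of sites and 7.27 points, and the line for Myf5 ends at 83.5% and 1.97 points.

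Large differences in rank were counted next. An H4Ac percentile at least 25 points higher than with GFP was found at 659 sites with MyoD (13.5%) and at 565 with Myf5 (11.6%). Counted by GFP H4Ac peak called in the 3 lists, the shares were 15.2% with MyoD and 14.6% with Myf5 at the sites. Over all such peaks they were 14.3% with MyoD and 17.7% with Myf5. A percentile at least 25 points lower was found at 173 sites with MyoD (3.55%) and at 412 with Myf5 (8.44%). Counted by peak, these shares were 3.94% with MyoD and 9.26% with Myf5 at the sites. Over all GFP H4Ac peaks they were 5.55% with MyoD and 8.45% with Myf5. With lists of equal length, 517 sites ranked at least 25 points higher and 321 lower with MyoD, and 525 higher and 449 lower with Myf5. Counted by peak in such lists, 12.25% at the sites and 10.6% over all ranked higher with MyoD. Those lower with MyoD were 6.65% at the sites and 8.85% over all. With Myf5, 14.0% at the sites and 16.6% over all ranked higher, and 10.1% at the sites and 9.31% over all lower. With the H4Ac peak of longest overlap in place of the strongest, 293 sites ranked at least 25 points lower with MyoD. Ranking by coverage over the cutoff was also tried after seeing the data. It put 703 sites at least 25 points higher and 207 lower with MyoD. With Myf5 it put 558 higher and 582 lower, so the excess of higher sites with Myf5 depended on the ranking. The 659 sites that were higher with MyoD had a median MyoD coverage of 84, and the 173 that were lower had 50. Sites low in the GFP list have more room to rank higher, and the median GFP percentile of the 659 was 32.5 against 73.3 for the 173.

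H4Ac peaks on both sides of the factor were more frequent in the cells with MyoD. Over the 4880 sites, H4Ac peaks flanked the centre of the MyoD peak on both sides, with the centre between them, at 18.3% with MyoD (17.2 to 19.4), 12.6% with Myf5 (11.7 to 13.6) and 14.3% with GFP (13.3 to 15.3). In the strongest MyoD group this arrangement was found at 25.1% of sites with MyoD, 16.1% with Myf5 and 15.6% with GFP. In the weakest group the values were 15.3% with MyoD, 12.1% with Myf5 and 13.4% with GFP. With lists of equal length the strongest group gave 22.8% with MyoD, 15.7% with Myf5 and 15.6% with GFP. The weakest then gave 13.7% with MyoD, 11.9% with Myf5 and 13.7% with GFP. In the strongest group the share of sites covered by H4Ac in the cells with MyoD was 54.4% at the centre and highest 250 bp from it, at 62.1%. In the cells with GFP the same sites gave 53.6% at the centre and at most 56.0%, also at 250 bp. In the cells with Myf5 they gave 53.5% at the centre and at most 60.6%, at 300 bp on the other side. Only H4Ac peaks that overlapped the MyoD peak were counted in the arrangement, so a wider MyoD peak has more room for it. MyoD peaks had a median width of 1017 bp in the strongest group and 623 bp in the weakest. H4Ac peaks were narrower in the list of the cells with MyoD, with a median of 264 bp over the whole list against 373 bp with Myf5 and 349 bp with GFP. The part of MyoD peak width and of H4Ac peak width in the arrangement was not tested. Of all 6414 sites, 38.5% had 2 or more H4Ac peaks with MyoD, 27.2% with Myf5 and 31.7% with GFP. The list of the cells with MyoD is also the longest. Neither the arrangement nor this count was set against sites outside the GFP-acetylated ones, so whether they are particular to them is unknown.

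**Figure D4:**
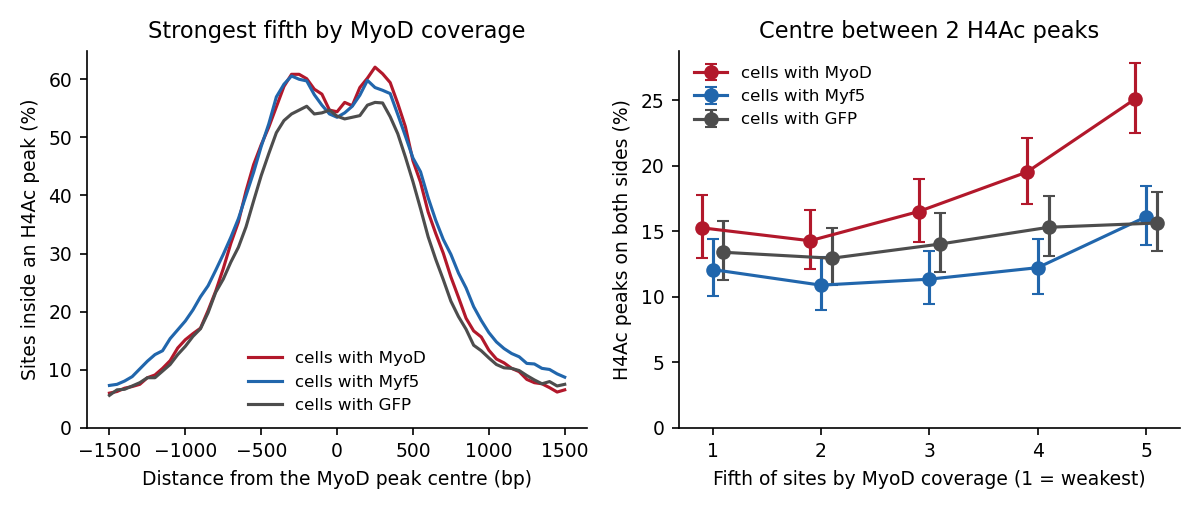
H4Ac around the centre of the MyoD peak, for the cells with MyoD, with Myf5 and with GFP. One panel gives the percent of sites covered by an H4Ac peak, by distance in bp, in the strongest MyoD group. The other gives the percent of sites with H4Ac peaks on both sides of the centre, with exact binomial intervals, in each of the 5 MyoD groups. Only H4Ac peaks that overlapped the MyoD peak count there. In the strongest group the line for MyoD dips to 54.4% at the centre and reaches 62.1% at 250 bp, the line for Myf5 has a like course, from 53.5% at the centre to 60.6% at 300 bp, and the line for GFP stays at or below 56.0%.

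Single sites show the range behind these medians, with positions in the mouse build mm9. The values of a site are those of its strongest H4Ac peak in each population, and these peaks may lie in different parts of the site. The strongest MyoD peak of the set was on chromosome 1 (88330973 to 88332744) and had coverages of 1678 for MyoD and 1441 for Myf5. Its H4Ac coverage was 224 with MyoD, 256 with Myf5 and 242 with GFP, near the top of each list. The next, on chromosome 6 (17465813 to 17467029), had 973 for MyoD and 2003 for Myf5. Here H4Ac was close to the cutoff with GFP, at a coverage of 24, and stood at 65 with MyoD and 45 with Myf5, or at percentiles of 89.9, 69.9 and 6.04 with MyoD, Myf5 and GFP. Strong binding did not always go with a higher rank. On chromosome 10 at 128358848 to 128360831, with the highest Myf5 coverage of the set at 2674 and a MyoD coverage of 954, H4Ac stood at percentiles of 76.1 with MyoD, 85.1 with Myf5 and 94.4 with GFP. On chromosome 6 at 49268210 to 49269720, where coverage was 943 for MyoD and 1261 for Myf5, the percentiles were 23.9 with MyoD, 68.6 with Myf5 and 70.9 with GFP. The site on chromosome 10 at 67011649 to 67013087, with 877 for MyoD and 1697 for Myf5, went the other way, at percentiles of 99.6 with MyoD, 97.3 with Myf5 and 92.4 with GFP. On chromosome 12 at 112934124 to 112935071, a Myf5 coverage of 1800 went with no H4Ac peak in the cells with Myf5, while the percentile was 47.8 with MyoD and 43.3 with GFP.

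The largest differences in rank were not all at strong factor peaks. The site that ranked highest with MyoD relative to GFP was on chromosome 2 at 148303023 to 148303659, where MyoD coverage was only 47 and Myf5 coverage 215. H4Ac coverage there was 121 with MyoD, 95 with Myf5 and 24 with GFP, or percentiles of 98.0 with MyoD, 94.96 with Myf5 and 6.04 with GFP. On chromosome 10 at 95770983, where coverage was 687 for MyoD and 1143 for Myf5, the percentiles were 92.3 with MyoD, 72.4 with Myf5 and 9.36 with GFP. The site that ranked highest with Myf5 relative to GFP was on chromosome 10 at 96944140, with coverages of 48 for MyoD and 70 for Myf5 and percentiles of 56.9 with MyoD, 93.0 with Myf5 and 2.47 with GFP. Its GFP H4Ac peak overlapped the site by only 20 bp, and the site had 2 H4Ac peaks with each factor. The site that ranked lowest with MyoD relative to GFP was on chromosome 9 at 77758191 to 77758607, with coverages of 34 for MyoD and 63 for Myf5 and percentiles of 11.3 with MyoD, 47.9 with Myf5 and 84.0 with GFP. On chromosome 6 at 33198808 to 33199407, stronger binding, at 236 for MyoD and 476 for Myf5, went with percentiles of 11.3 with MyoD, 89.9 with Myf5 and 81.6 with GFP. That site had 2 H4Ac peaks with GFP, and the strongest of them ended at 33198836, near the start of the site. The site that ranked lowest with Myf5 relative to GFP was on chromosome 3 at 14578736 to 14579219, with percentiles of 72.2 with MyoD, 17.2 with Myf5 and 89.8 with GFP.

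The 5 sites with the most H4Ac in the cells with GFP had it in both other populations, at MyoD coverages between 29 and 153. On chromosome 16 at 23988373 to 23988938, H4Ac coverage was 334 with MyoD, 237 with Myf5 and 525 with GFP, while the factors had 83 (MyoD) and 116 (Myf5). The H4Ac percentiles there were 99.90 with MyoD, 99.73 with Myf5 and 99.98 with GFP. On chromosome 2 at 170336427 to 170336961 H4Ac coverage was 512 with MyoD, 447 with Myf5 and 525 with GFP, at 32 for MyoD and 57 for Myf5. The percentiles were 99.99 with MyoD, 99.98 with Myf5 and 99.98 with GFP. Of the 5 sites strongest in H4Ac with GFP that had no H4Ac peak with MyoD, each had its GFP H4Ac peak called with MyoD beside the factor peak. The strongest of them, on chromosome 10 (13682970 to 13684043), had a GFP H4Ac coverage of 119. Among the 5 strongest with no H4Ac in either population, the GFP H4Ac peak itself was called with neither factor only on chromosome 16 at 30064006 to 30064690. That site had a coverage of 83 for MyoD and 103 for Myf5 and a GFP H4Ac coverage of 63.

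The mock precipitations hold 942 peaks for the MyoD antibody and 1359 for the Myf5 antibody. None of the GFP-acetylated sites overlapped either. Of the whole MyoD list, 0 peaks overlapped a MyoD mock peak, so the overlap with that mock does not measure the background at these sites, and 53 overlapped a Myf5 mock peak. An authors' control p-value of 1e-05 or lower was found for the MyoD peak at 1 site, and for the H4Ac peak at 0 sites with MyoD, 1 with Myf5 and 1 with GFP.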

How the data were processed

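Each list is the authors' deposited table of peaks, with position, width, maximum read coverage (a signal), a coverage cutoff, a p-value, the control's coverage and a GC class, per the file headers. The authors' control p-value exceeds 1 in places, so it was read as a score without a fixed range and used only to find low values. The submitters' processing notes name CASAVA 1.8.2, BWA 0.7.5 and, with no role, the builds hg19 and mm9. Chromosome 1 has peaks up to position 197068167, beyond the end of its last gene in GRCm38 at 195291439, so positions were read as mm9. What called the peaks, against which control, and how replicates were joined is not given in the sources used here. Depth per sample is unknown, so its effect on the number of peaks could not be allowed for.

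Sites were matched by an overlap of at least 1 bp, and coverage was ranked within a list. The strongest overlapping H4Ac peak stood for a site. Shares have exact (Clopper-Pearson) binomial intervals, differences of shares a normal approximation, and medians order-statistic intervals. Groups follow the antibody and transgene in the labels, and 3 input samples were not analysed here. The sites, groups and comparisons were chosen with earlier results of these data known. Named sites are the 5 highest in MyoD, Myf5 or GFP H4Ac coverage, the 5 with the largest positive and negative difference of H4Ac percentile between each factor and GFP, and the 5 strongest with GFP that had no H4Ac with MyoD, with Myf5 or with either, of which some are given. Gene names, gene lists, marker positions and sequences were not used here, because the annotation is of another build. Alternatives were a larger overlap, a gap of 500 bp, a p-value of 1e-07, removal of mock and control regions, lists of equal length, other units of counting and other rankings, and, added after seeing the data, reweighting, the contrasts between groups by MyoD strength, and lists of equal length for large rank differences and for GFP H4Ac peaks. The overlap step was tested on simulated data. Tools were matplotlib 3.10.9, scipy 1.17.1, pandas 2.3.3 and numpy 2.4.6 under Python 3.11.15.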

Additional observations from a re-analysis of the deposited data

Results flagged for a closer look

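The difference between the GFP-acetylated sites and the other GFP H4Ac peaks, in the share called again, had opposite signs with the 2 factors in 3 of the 4 classes of GFP strength. From 25% to 50% above the cutoff it was 9.64 percentage points with MyoD and -3.05 points with Myf5. From 50% to 100% above it the difference was 3.83 points with MyoD and -1.34 points with Myf5, and at 100% or more above it the difference was 0.393 points with MyoD and -0.241 points with Myf5. With Myf5 the interval excluded 0 only from 25% to 50% above the cutoff (-5.82 to -0.291). Against only those other peaks that overlapped a factor peak, the same classes gave 7.88, 3.19 and 0.366 points with MyoD. With Myf5 they gave -0.494 (-4.14 to 3.15), -2.23 (-4.82 to 0.372) and 0.0462 points (-1.08 to 1.17). Each of these Myf5 intervals included 0, and in the strongest class the signs were no longer opposite. The difference between the factors was not tested, since each has 1 H4Ac list and both are set against the same GFP list.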

How the results depend on the processing

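Of 102 alternative values, 55 moved by less than their interval (counts, by less than 1.5 times), 44 moved further and 3 changed sign; the cause was not tested. An overlap of at least 50% of the shorter peak left 5383 sites, with H4Ac at 86.0% with MyoD and 75.03% with Myf5, differences from the other GFP H4Ac peaks of 12.0 and 3.67 points, and a contrast between MyoD groups of 10.2 points with Myf5. A gap of up to 500 bp gave 88.4% and a difference of 10.00 points with MyoD. A p-value of 1e-07 left 3655 sites, with 75.8% with Myf5, differences of 8.68 points with MyoD and 1.04 points with Myf5, contrasts between MyoD groups of 7.66 and 2.46 points, and percentile shifts of 2.13 points (MyoD over GFP) and 1.33 points (MyoD over Myf5). Lists of equal length gave 84.4% and a difference of 14.8 points with MyoD, shifts of 0.445, 0.699 and 0.601 points (MyoD over GFP, Myf5 over GFP, MyoD over Myf5), and shifts of -0.816 and -0.524 points, against 0.763 and 0.958, in the weakest MyoD group (MyoD over GFP, MyoD over Myf5). Judging by the GFP H4Ac peak gave a contrast between MyoD groups of 9.66 points with MyoD. Ranking coverage over cutoff gave 0.564 points (Myf5 over GFP) and 2.91 points (MyoD over Myf5). Centring on the Myf5 peak put the centre inside H4Ac at 56.3% with MyoD, 58.6% with Myf5 and 57.2% with GFP, against 53.0%, 56.5% and 55.5%, and between peaks at 14.9%, 10.4% and 12.2%. Reweighting the other GFP H4Ac peaks to strength, then also to GC, then also to width gave differences of 6.83, 6.19 and 5.92 points with MyoD, and of -0.449, 1.02 and 0.611 points with Myf5. Removing mock and control regions left 6408 sites. No paired analysis was possible because each group has 1 list, and for the same reason no replicate could be left out.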

Other observations

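The relative strength of the factors at a site also went with the relative rank of H4Ac. The sites were divided into 5 equal groups by the MyoD percentile minus the Myf5 percentile, each within its own factor list. H4Ac was present with MyoD at 82.6%, 85.7%, 87.3%, 89.6% and 92.9% of the sites, from the group where MyoD ranked lowest against Myf5 to the group where it ranked highest, and with Myf5 at 79.6%, 80.4%, 79.3%, 79.6% and 81.8%. The median H4Ac percentile with MyoD minus that with Myf5 was 0.458, 1.28, 1.29, 3.16 and 3.73 points over the same groups. MyoD coverage was also higher in the later groups, with medians of 34, 45, 66, 110 and 179. Myf5 coverage rose as well, with medians of 88, 91, 126.5, 210 and 272. In the last group the median difference between the factor percentiles was -0.247 points, so there the factors ranked about level. Relative strength therefore cannot be told apart from the absolute strength of either factor here.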
